A study of Mus musculus with 10 samples.

Results

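The 28 genes described here make, sense, take up, store and expel cholesterol. They were taken by symbol, and all 28 were found among the 30295 gene rows of the deposited tables. All 28 passed the filter on low counts, as did 15839 genes in all. By role they are 20 enzymes of synthesis, 3 regulators of the pathway, and 5 genes of sterol transport and esterification. RNA was sequenced from sorted intestinal stem cells of 10 mice of strain C57Bl/6, 1 library per animal, to compare calorie restriction (CR) with feeding at will (ad libitum, AL) in reserve and active stem cells. The Hopx CR and Hopx AL groups hold 2 libraries each, of cells sorted by a tdTomato reporter that an inducible Cre under the control of Hopx switches on (Hopx-CreER::LSL-tdTomato). The Lgr5 CR and Lgr5 AL groups hold 3 libraries each, of cells sorted by EGFP under the control of Lgr5, whose allele also carries CreER (Lgr5-EGFP-IRES-CreER). The labels used here give neither the animals' age nor the length and degree of the restriction. Cells came from 5 isolations, each of 1 CR and 1 AL animal of 1 reporter line. Isolations 1 to 3 are the Lgr5 pairs, and isolations 4 and 5 are the Hopx pairs.

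Cholesterol is built from acetyl-CoA by way of mevalonate, isoprenoids, squalene and lanosterol. When sterol in the endoplasmic reticulum runs low, Scap carries the transcription factor SREBP2 (gene Srebf2) to the Golgi, where it is cut and released to switch on the genes of synthesis. When sterol is ample, Insig1 holds Scap back. In the small intestine Npc1l1 takes sterol up from the lumen, Abcg5 and Abcg8 act together to return sterol to it, and Soat2 esterifies cholesterol for packing into lipoproteins. These last functions belong to absorptive enterocytes, the cells that stem cells of the crypt give rise to. The gene Acat2 is the cytosolic thiolase that starts the pathway. It is not Soat2, whose protein is also called ACAT2.

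Promoter sequence was available for 23 of the 28 genes in the RefSeq table of build GRCm38.p6, as 250 bases before to 50 bases after each start. Fdps, Fdft1, Sqle, Stard4 and Soat2 were not matched. The 6 stretches printed stand for the groups of genes that the values separate: enzymes and a regulator with lower values in CR libraries, and intake and export genes with higher values. Capitals mark CCAAT (the box bound by NF-Y, a factor known to act with SREBP2), GGGCGG (the Sp1 box) and TCACNCCAC (a form of the sterol regulatory element), each read on either strand. Hmgcs1 is chr13:119690101-119690350 on the plus strand, Idi1 is chr13:8885356-8885605 on the plus strand, and Cyp51 is chr5:4104698-4104947 on the minus strand. Insig1 is chr5:28071162-28071411 on the plus strand, and Npc1l1 is chr11:6230246-6230495 on the minus strand. The last is chr17:84683012-84683120, the 109 bases between the starts of Abcg5 and Abcg8, which are read in opposite directions. It holds none of the motifs.
Hmgcs1: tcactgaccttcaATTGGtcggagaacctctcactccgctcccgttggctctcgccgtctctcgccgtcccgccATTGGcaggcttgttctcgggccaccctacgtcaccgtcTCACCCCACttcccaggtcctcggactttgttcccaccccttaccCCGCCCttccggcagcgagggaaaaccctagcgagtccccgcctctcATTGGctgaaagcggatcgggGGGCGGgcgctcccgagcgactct
Idi1: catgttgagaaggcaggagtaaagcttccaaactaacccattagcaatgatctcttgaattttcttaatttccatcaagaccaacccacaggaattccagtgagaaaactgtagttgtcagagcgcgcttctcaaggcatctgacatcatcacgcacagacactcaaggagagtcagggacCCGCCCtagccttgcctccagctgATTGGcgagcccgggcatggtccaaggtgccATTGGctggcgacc
Cyp51: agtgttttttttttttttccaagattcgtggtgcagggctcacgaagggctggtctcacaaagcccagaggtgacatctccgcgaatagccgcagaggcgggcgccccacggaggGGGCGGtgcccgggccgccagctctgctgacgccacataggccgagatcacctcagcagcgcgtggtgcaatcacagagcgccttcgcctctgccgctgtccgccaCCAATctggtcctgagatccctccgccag
Insig1: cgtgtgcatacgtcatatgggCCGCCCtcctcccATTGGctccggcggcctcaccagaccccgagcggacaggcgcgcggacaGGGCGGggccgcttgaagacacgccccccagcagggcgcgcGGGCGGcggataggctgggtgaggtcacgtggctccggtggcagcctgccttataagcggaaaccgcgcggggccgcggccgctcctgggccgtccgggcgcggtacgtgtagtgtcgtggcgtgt
Npc1l1: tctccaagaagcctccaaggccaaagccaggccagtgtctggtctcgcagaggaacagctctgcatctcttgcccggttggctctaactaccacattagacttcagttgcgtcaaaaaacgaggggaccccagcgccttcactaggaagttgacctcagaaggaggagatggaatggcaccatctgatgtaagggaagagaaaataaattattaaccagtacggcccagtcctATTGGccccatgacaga
Abcg5 to Abcg8: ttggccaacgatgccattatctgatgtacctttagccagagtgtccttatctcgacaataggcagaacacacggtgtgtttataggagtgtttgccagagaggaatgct

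Over the whole windows, CCAAT was present in 21 of the 23 members (91.3%), with Acat2 and Scap lacking it, and in 41.1% of the promoters of all 27025 genes. GGGCGG was present in 15 of the 17 enzymes with a promoter (88.2%), in all 3 regulators and in none of Npc1l1, Abcg5 and Abcg8. It was present in 38.2% of all promoters. TCACNCCAC was found in Hmgcs1 alone (4.35% of members), and in 1.44% of all promoters. No occurrence overlapped one of another motif. These are matches of letters in a fixed window and show no binding.

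Depth was 20251405 to 87215705 estimated counts per library, and replicates of a group correlated at 0.957 to 0.982 on the log2 scale. Lgr5 mRNA was 69.3 to 158 CPM (estimated counts scaled to library size by the TMM method) in Hopx libraries and 75.0 to 269.9 CPM in Lgr5 libraries. Hopx mRNA was 81.9 to 116 CPM in Hopx libraries and 116 to 154 CPM in Lgr5 libraries, so it was not higher in cells sorted by its reporter. All 8 active stem cell markers had lower fitted values in Hopx cells than in Lgr5 cells, and 3 of them passed the test. Lgr5 AL replicate 1 stood apart from its group, with a summed 26472 CPM of 12 enterocyte markers where replicates 2 and 3 had 8121 and 5076 CPM. Hopx AL replicate 1 had 206135 CPM of 8 Paneth cell markers, the highest of the 10 libraries. The Y-linked gene Eif2s3y was at 0.254 CPM in Hopx CR replicate 1 and at 41.2 CPM in Hopx AL replicate 1, so the animals of isolation 4 differed in sex as well as in diet. It was at 0.116 CPM in Lgr5 CR replicate 3 and 0.0406 CPM in Lgr5 AL replicate 3. In the other Lgr5 libraries it was at 14.2 to 49.8 CPM, so both Lgr5 groups held animals of both sexes.

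Within every isolation the CR library held more mRNA of the transport genes other than Stard4 for each unit of synthesis-enzyme mRNA than the AL library did. Stard4, whose log2 fold change averaged over populations was -0.05, was left out of the transport sums. Npc1l1, Abcg5, Abcg8 and Soat2 together summed to 923 and 866 CPM in Hopx CR libraries, against 437 and 325 CPM in Hopx AL libraries. In Lgr5 cells they summed to 1414, 934 and 995 CPM in CR libraries, against 1313, 435 and 285 CPM in AL libraries. The Hopx groups did not overlap, and the Lgr5 groups overlapped through AL replicate 1. The 20 enzymes summed to 1144 and 1533 CPM in Hopx CR libraries, against 1906 and 1460.3 CPM in Hopx AL libraries. In Lgr5 cells they summed to 1091, 1145 and 1029 CPM in CR libraries, against 1376, 1404 and 1234 CPM in AL libraries. By this sum the Lgr5 groups did not overlap, and in Hopx cells isolation 5 ran the other way from isolation 4. The ratio of the transport sum to the synthesis sum, which no scaling between libraries can move, was 0.807 and 0.565 in Hopx CR libraries, against 0.229 and 0.223 in Hopx AL libraries. It was 1.30, 0.815 and 0.967 in Lgr5 CR libraries, against 0.954, 0.309 and 0.231 in Lgr5 AL libraries. Each CR value exceeded the AL value of its own isolation, 5 of 5 times. These are bulk libraries, so fewer cells of a type and less RNA per cell cannot be told apart.

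**Figure D1:**
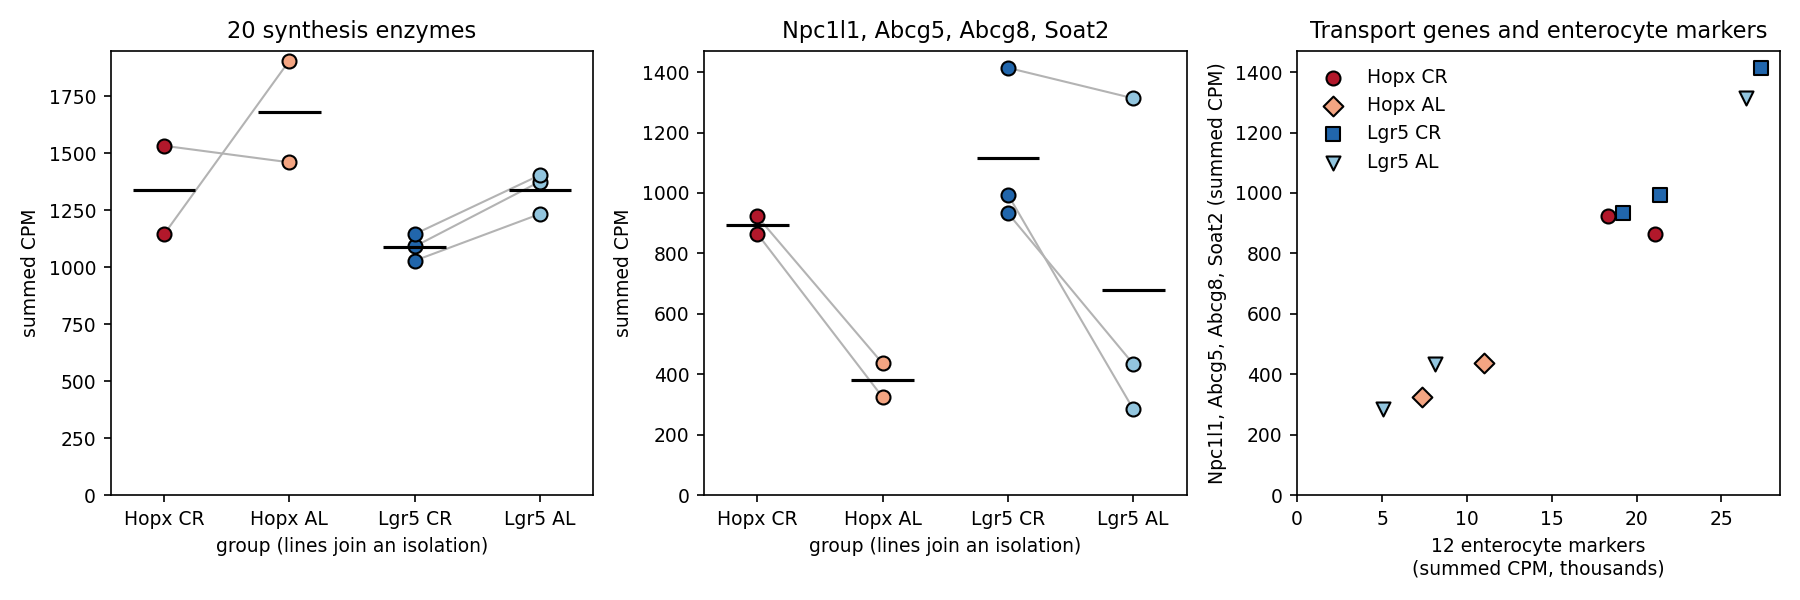
Summed TMM-scaled CPM per library for the 20 synthesis enzymes (left) and for Npc1l1, Abcg5, Abcg8 and Soat2 (middle) in the 4 groups, with grey lines joining the CR and AL libraries of an isolation and black bars at group means; at right, the transport sum is plotted against the sum of 12 enterocyte markers. The transport sum spans 285 to 1414 CPM and the enterocyte sum 5076 to 27326 CPM, and the 10 libraries lie along 1 band.

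The transport sum moved with the enterocyte markers from library to library. The 12 markers summed to 18301 and 21098 CPM in Hopx CR libraries, against 11038 and 7371 CPM in Hopx AL libraries. In Lgr5 cells they summed to 27326, 19215 and 21376 CPM in CR libraries, against 26472, 8121 and 5076 CPM in AL libraries. For each 100 CPM of these markers the libraries held 3.95 to 5.62 CPM of the 4 transport genes, a 1.42-fold range, while the transport sum itself had a 4.95-fold range. By this measure the Hopx CR libraries had 5.04 and 4.10, against 3.95 and 4.41 in Hopx AL libraries. Lgr5 CR libraries had 5.17, 4.86 and 4.65, against 4.96, 5.35 and 5.62 in Lgr5 AL libraries. Both comparisons overlapped. All 12 markers had higher fitted values in CR in both populations, with a median log2 fold change of 1.25 in Hopx cells and 0.90 in Lgr5 cells, and none passed the test. Whether enterocyte RNA accounts for the transport genes' difference was not tested.

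Among the synthesis enzymes, 17 of 20 had lower fitted values in Hopx CR than in Hopx AL cells, and 15 of 20 in Lgr5 CR than in Lgr5 AL cells. Below 0 were 51.3% and 48.2% of all genes tested in these comparisons, and above 0 were 48.6% and 51.8%. Their median log2 fold change was -0.37 in Hopx cells and -0.44 in Lgr5 cells, beside medians of -0.02 and 0.02 over all genes. No enzyme passed an adjusted p of 0.05 in either population (edgeR's quasi-likelihood test with Benjamini-Hochberg adjustment over all genes), where 0.0126% of genes were called in Hopx cells and 0.0189% in Lgr5 cells. DESeq2 called Acat2 and Cyp51 as lower in Lgr5 CR cells, among 360 genes called of 24709. In Hopx cells it called no member, among 144 genes called. At an unadjusted p under 0.05, 2 enzymes were lower in Hopx CR cells (3.11% of all genes were lower) and 6 in Lgr5 CR cells (4.21%), and none was higher. In Lgr5 cells this count was 4 without AL replicate 1, AL replicate 2 or CR replicate 3. It was 5 without CR replicate 1, 7 without CR replicate 2 and 10 without AL replicate 3. Leaving out a Hopx library leaves 1 in its group. The enzymes' median in Hopx cells was then -0.15 without AL replicate 1 and -0.17 without CR replicate 1. It was -0.59 without AL replicate 2 and -0.52 without CR replicate 2. With log2(TPM + 1) values, by which the median gene was at 0.15 in Hopx cells and -0.11 in Lgr5 cells, 13 and 17 of the 20 enzymes were below 0. Relative to those medians the enzymes' medians were -0.21 in Hopx cells and -0.51 in Lgr5 cells.

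The enzymes are given by step, and no test of a difference between steps was made. All 7 enzymes that lead from acetyl-CoA to farnesyl diphosphate (Acat2, Hmgcs1, Mvk, Pmvk, Mvd, Idi1 and Fdps) were below 0 in both populations, with medians of -0.46 in Hopx cells and -0.64 in Lgr5 cells. So were all 3 that make squalene and turn it into lanosterol (Fdft1, Sqle and Lss), with medians of -0.44 and -0.53. Of the 9 that turn lanosterol into cholesterol, 7 were below 0 in Hopx cells and 5 in Lgr5 cells, with medians of -0.23 and -0.19. Cyp51, which had the lowest value of all enzymes in both populations, is one of these 9. Ggps1, which diverts farnesyl diphosphate into geranylgeranyl groups for protein prenylation, had log2 fold changes of 0.03 in Hopx cells and 0.37 in Lgr5 cells.

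**Figure D2:**
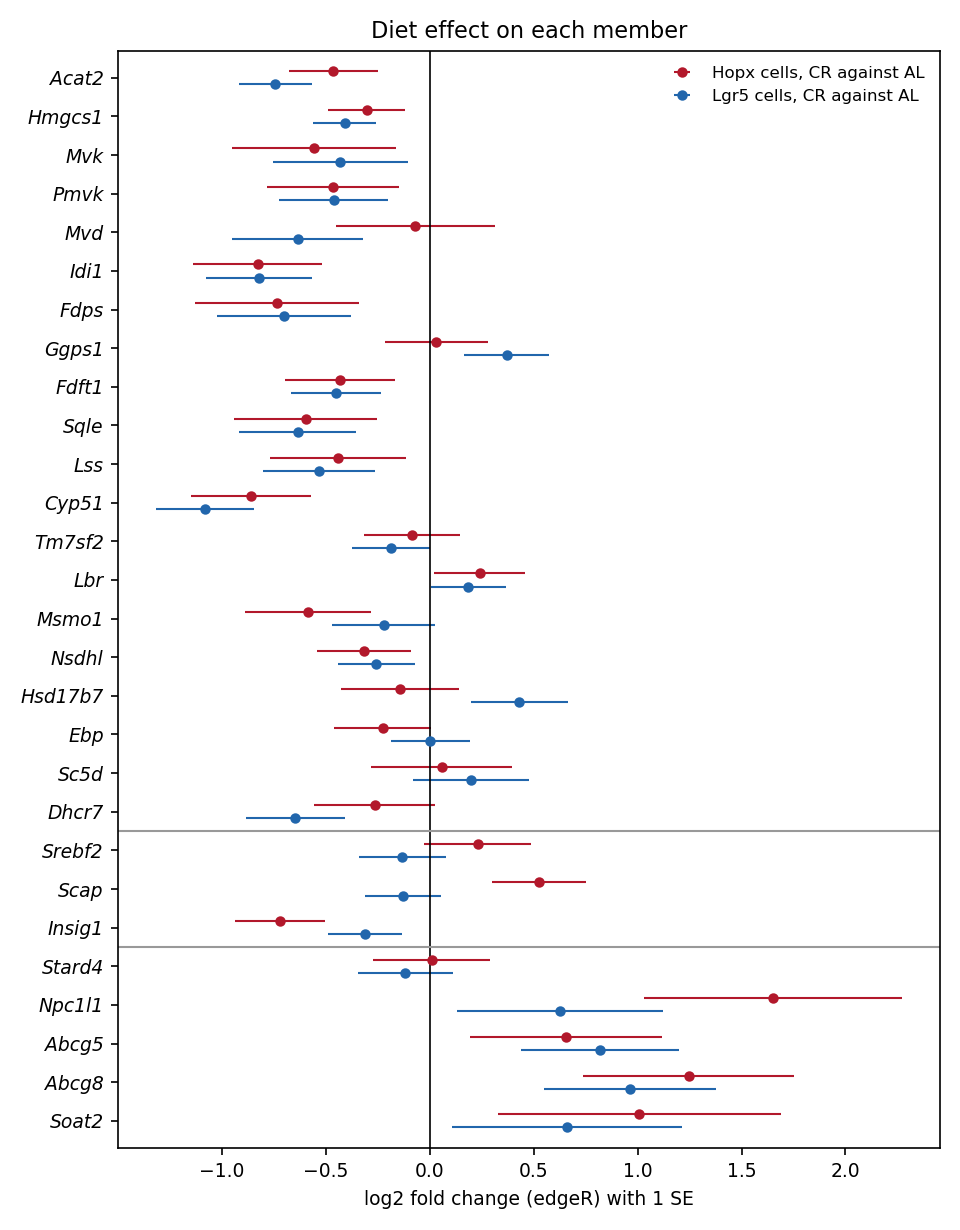
Log2 fold change of CR over AL for the 28 genes in Hopx cells (red) and Lgr5 cells (blue), from edgeR, with bars of 1 standard error; grey lines divide enzymes, regulators and transport genes. Cyp51 lies at -0.86 in Hopx cells and -1.08 in Lgr5 cells, and Npc1l1 at 1.65 and 0.63.

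Cyp51, the enzyme that removes a methyl group from lanosterol, had the smallest p of all members in Lgr5 cells and over both populations. It had 49.4 and 77.8 CPM in Hopx CR libraries, against 131 and 99.8 CPM in Hopx AL libraries. Lgr5 CR libraries had 42.2, 47.5 and 32.5 CPM of it, against 105, 71.7 and 81.4 CPM in Lgr5 AL libraries. The groups did not overlap in either population. Its log2 fold change was -0.86 ± 0.29 (SE) in Hopx cells (adjusted p = 0.504, edgeR) and -1.08 ± 0.24 in Lgr5 cells (adjusted p = 0.189, edgeR). Averaged over both populations it was -0.97 ± 0.19, a 1.96-fold lower level, with an adjusted p of 0.0976 by edgeR. The difference was in the same direction in 5 of 5 isolations. Under the alternatives the averaged adjusted p ran between 7.62e-04 by DESeq2 and 0.346 without Hopx CR replicate 1.

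Idi1, the isomerase that makes dimethylallyl diphosphate, had 49.0 and 89.7 CPM in Hopx CR libraries, against 132 and 114 CPM in Hopx AL libraries. Lgr5 CR libraries had 43.1, 49.6 and 32.8 CPM, against 64.7, 65.6 and 91.2 CPM in Lgr5 AL libraries. CR libraries lay below AL libraries without overlap in both populations, with log2 fold changes of -0.83 ± 0.31 in Hopx cells and -0.82 ± 0.25 in Lgr5 cells (SE; adjusted p = 0.531 and 0.320, edgeR). Acat2, the thiolase, had 69.2 and 79.5 CPM in Hopx CR libraries, against 119 and 85.8 CPM in Hopx AL libraries. The Lgr5 CR libraries had 62.1, 74.3 and 61.3 CPM of Acat2, against 101, 126 and 103 CPM in Lgr5 AL libraries. By CPM it was the only member whose 5 CR libraries all lay below its 5 AL libraries, as 1.38% of all genes did. This depended on the scale. By TPM the Acat2 value of Lgr5 CR replicate 2 lay above those of both Hopx AL libraries. The 5 CR libraries of Cyp51 all lay below its 5 AL libraries by TPM. The averaged log2 fold change of Acat2 was -0.60 ± 0.14 (adjusted p = 0.123, edgeR), and that of Idi1 was -0.82 ± 0.20 (adjusted p = 0.136, edgeR).

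Hmgcs1, which condenses acetoacetyl-CoA into HMG-CoA, had 112 and 151 CPM in Hopx CR libraries, against 173 and 152 CPM in Hopx AL libraries. For Lgr5 cells the values were 94.2, 87.0 and 92.9 CPM in CR libraries, against 124, 112 and 128 CPM in AL libraries. By CPM the groups were apart in both populations, though the difference within isolation 5 was -0.01 on the log2 scale. By TPM the Hopx groups overlapped, with 31.8 and 44.2 TPM in CR libraries, against 35.2 and 41.5 TPM in AL libraries. Dhcr7, which reduces 7-dehydrocholesterol to cholesterol in the last step, had 28.1 and 44.6 CPM in Hopx CR libraries, against 48.6 and 38.7 CPM in Hopx AL libraries. It had 27.1, 32.8 and 21.6 CPM in Lgr5 CR libraries, against 44.6, 48.8 and 33.9 CPM in Lgr5 AL libraries. Only the Lgr5 groups were apart, with a log2 fold change of -0.65 ± 0.24 (SE; adjusted p = 0.421, edgeR).

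Msmo1, which oxidises the methyl groups of the sterol ring, had 71.3 and 106 CPM in Hopx CR libraries, against 162 and 103 CPM in Hopx AL libraries. In Lgr5 cells Msmo1 had 63.5, 63.9 and 51.8 CPM in CR libraries, against 82.9, 75.3 and 50.4 CPM in AL libraries, and the groups overlapped in both populations. Hsd17b7, the 3-keto sterol reductase, had 24.1 and 29.3 CPM in Hopx CR libraries, against 37.6 and 21.3 CPM in Hopx AL libraries. It had 30.0, 25.3 and 23.1 CPM in Lgr5 CR libraries, against 21.7, 18.6 and 17.8 CPM in Lgr5 AL libraries. It was the 1 enzyme whose Lgr5 groups were apart with CR higher (log2 fold change 0.43 ± 0.23, adjusted p = 0.576, edgeR), and 8 enzymes were apart with CR lower. The groups of 7.41% of all genes were apart upward and those of 7.49% downward. With 2 against 2 libraries in Hopx cells, 7 enzymes were apart with CR lower and 1 with CR higher, where 21.1% and 21.5% of all genes were.

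The other 13 enzymes had log2 fold changes of -0.73 (Fdps) to 0.24 (Lbr) in Hopx cells and -0.70 (Fdps) to 0.37 (Ggps1) in Lgr5 cells. Sqle, the epoxidase that acts on squalene, was at -0.60 in Hopx cells and -0.63 in Lgr5 cells, with an averaged value of -0.62 ± 0.22 (adjusted p = 0.262, edgeR). Fdps, the farnesyl diphosphate synthase, averaged -0.72 ± 0.26 (adjusted p = 0.259, edgeR). The alternative sterol C14-reductases Tm7sf2 and Lbr, the second of which is also a protein of the nuclear envelope, averaged -0.13 and 0.21, each within 2 standard errors of 0. Compared per length, Lbr averaged 81.1 TPM (a length-normalised share of a library's transcripts) over the 10 libraries and Tm7sf2 16.1 TPM.

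Over both populations together, 16 of the 20 enzymes had averaged values below 0, as did 50.1% of all genes, and 4 above 0, as did 49.9%. At an unadjusted p under 0.05, 10 enzymes were lower (6.17% of all genes) and none was higher. That count was 3 without Hopx AL replicate 1 or Hopx CR replicate 1, and 6 without Lgr5 AL replicate 2 or Lgr5 CR replicate 3. No member passed the adjusted test by edgeR there, where 0.00631% of genes did. DESeq2 called Acat2, Idi1, Cyp51, Insig1 and Abcg8, among 644 genes called of 24709. Of the 28 members, 7 were lower in CR in 5 of 5 isolations, as were 7.66% of all genes: Acat2, Hmgcs1, Idi1, Fdps, Cyp51, Nsdhl and Insig1. The enzymes' median difference by isolation was -0.48, -0.41 and -0.23 in isolations 1 to 3, and -0.78 and 0.03 in isolations 4 and 5. Below 0 were 17 of the 20 enzymes in isolation 4 and 9 in isolation 5. Without Hopx AL replicate 1 the enzymes' median in Hopx cells was -0.15, and without Hopx CR replicate 1 it was -0.17. S-phase genes, which mark DNA replication, were lower beside the enzymes in 4 of the 5 isolations: 7 of 12 were lower in Hopx CR cells (median -0.07) and 12 of 12 in Lgr5 CR cells (median -0.59). By isolation their medians were -0.76, -0.41 and -0.56 in isolations 1 to 3, and -0.25 and 0.23 in isolations 4 and 5. Markers of some other cell types were lower as well, more so in 1 population than in the other. All 8 tuft cell markers were lower in Lgr5 CR cells, with groups apart (median -1.99), where 7.49% of all genes were apart downward. These markers summed to 89.7 to 151 CPM in Lgr5 CR libraries, against 269 to 635 CPM in Lgr5 AL libraries. In Hopx CR cells 8 of 8 immune markers (median -1.70) and 7 of 8 Paneth cell markers (median -0.67) had lower fitted values. The immune markers summed to 21.2 to 68.9 CPM in Hopx CR libraries, against 89.1 to 197 CPM in Hopx AL libraries. The Paneth cell markers summed to 61990.0 to 98806 CPM, against 83215 to 206135 CPM, and these overlapped. In the other population 6 of 8 tuft cell markers were lower in Hopx CR cells (median -0.13). In Lgr5 CR cells 6 of 8 immune and 4 of 8 Paneth cell markers were lower. All 8 enteroendocrine markers had lower fitted values in Hopx CR cells (median -0.65), and 3 of 8 in Lgr5 CR cells. Their sum ran in opposite directions in the Hopx isolations. It was 6141 CPM in CR against 3962 CPM in AL in isolation 4, and 2049.5 against 5752 CPM in isolation 5. None of these markers passed the adjusted test for diet. The part of these cell types and of proliferation in the enzymes' difference was not tested.

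**Figure D3:**
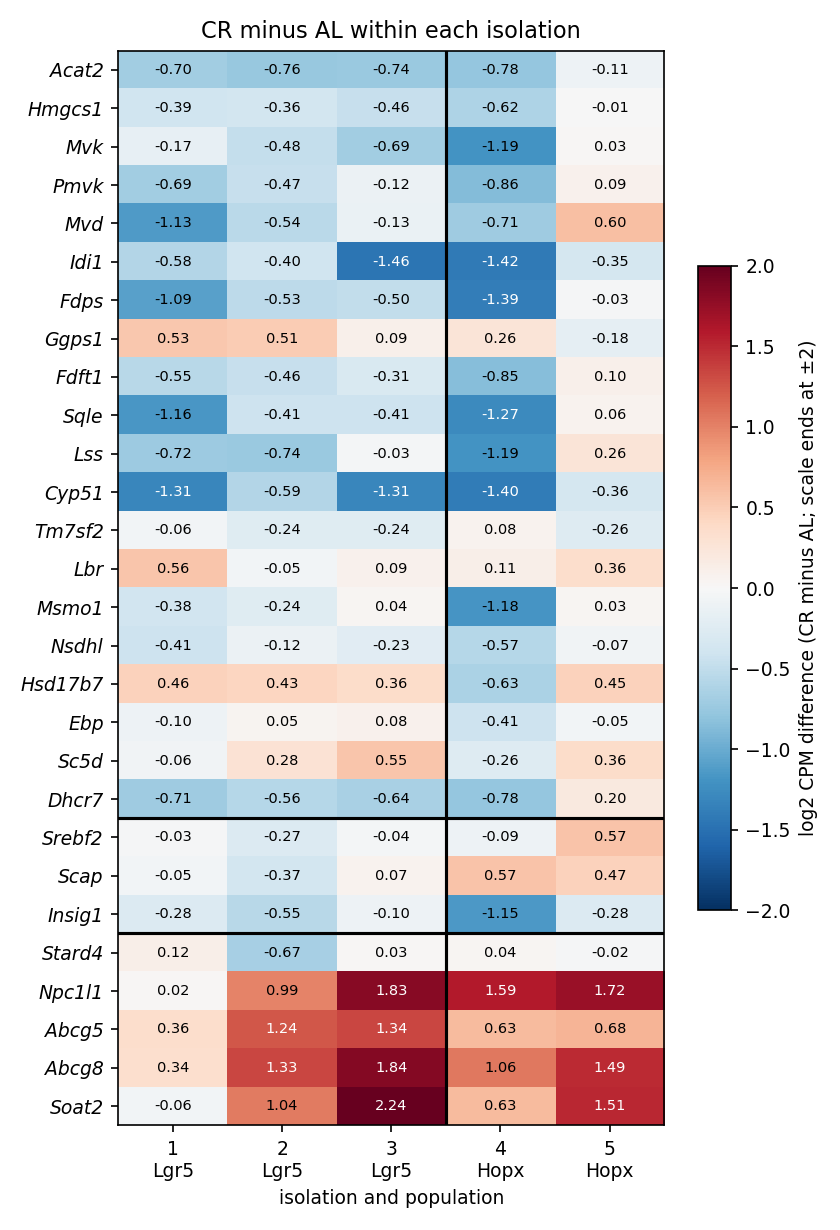
Difference in log2 CPM, CR minus AL, of each member within each of the 5 isolations (columns; isolations 1 to 3 are Lgr5 cells, 4 and 5 Hopx cells), with blue for lower and red for higher in CR; black lines divide enzymes, regulators and transport genes. The enzyme rows are mostly blue in isolation 4, with a median of -0.78, and mixed in isolation 5, with a median of 0.03.

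Of the regulators, Insig1 had lower values in CR, as most enzymes did. Insig1, itself a known target of SREBP2, had 42.9 and 58.3 CPM in Hopx CR libraries, against 95.6 and 70.8 CPM in Hopx AL libraries. It had 32.7, 30.0 and 36.7 CPM in Lgr5 CR libraries, against 39.7, 44.2 and 39.5 CPM in Lgr5 AL libraries. The groups were apart in both populations and the CR library was lower in 5 of 5 isolations. The log2 fold change was -0.72 ± 0.22 in Hopx cells (adjusted p = 0.485, edgeR) and -0.31 ± 0.18 in Lgr5 cells (adjusted p = 0.602, edgeR).

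Srebf2, the gene of the transcription factor itself, had 148 and 178 CPM in Hopx CR libraries, against 158 and 119.9 CPM in Hopx AL libraries. In Lgr5 cells Srebf2 had 131, 175 and 155 CPM in CR libraries, against 133, 212 and 159 CPM in AL libraries. The groups overlapped in both populations, and the averaged log2 fold change was 0.05 ± 0.17. Scap, the escort protein, had 117 and 109 CPM in Hopx CR libraries, against 78.7 and 78.8 CPM in Hopx AL libraries. It had 83.3, 102 and 114 CPM in Lgr5 CR libraries, against 86.2, 132 and 109 CPM in Lgr5 AL libraries. The Hopx groups were apart with CR higher, as were those of 21.5% of all genes, while the Lgr5 groups overlapped. The test of that difference between populations gave 0.65 ± 0.29 on the log2 scale with an unadjusted p of 0.0489 and an adjusted p of 1 (edgeR).

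No other member had an unadjusted p under 0.05 for a diet effect that differed between populations, as 2.83% of all genes did upward and 1.89% downward. Of the enzymes' differences 10 were above 0 and 10 below (46.5% and 53.5% of all genes), and 0.00631% of genes passed the adjusted test. This split depended on the scale and on single libraries. With log2(TPM + 1) values 19 of 20 were above 0, and 3 of them had an unadjusted p under 0.05 (limma). On that scale the median gene was itself at 0.29, and 1324 of 15839 genes had such a p in either direction. Relative to the median gene the enzymes' median was 0.22. On the count scale the split was 17 above and 3 below without Hopx AL replicate 1. It was 15 and 5 without Hopx CR replicate 1, and 4 and 16 without Hopx CR replicate 2. The members with the next smallest p were Hsd17b7 at -0.57 ± 0.37, Insig1 at -0.41 ± 0.28 and Npc1l1 at 1.03 ± 0.78 (log2 scale, Hopx minus Lgr5, SE). Without Lgr5 AL replicate 1 the value of Npc1l1 was 0.04 and that of Abcg5 -0.86 (unadjusted p = 0.018, adjusted p = 0.597, edgeR). With log2(TPM + 1) values Insig1 was at 0.08, beside 0.29 for the median gene. These intervals are wide, and a p that misses the threshold does not show equal effects.

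**Figure D4:**
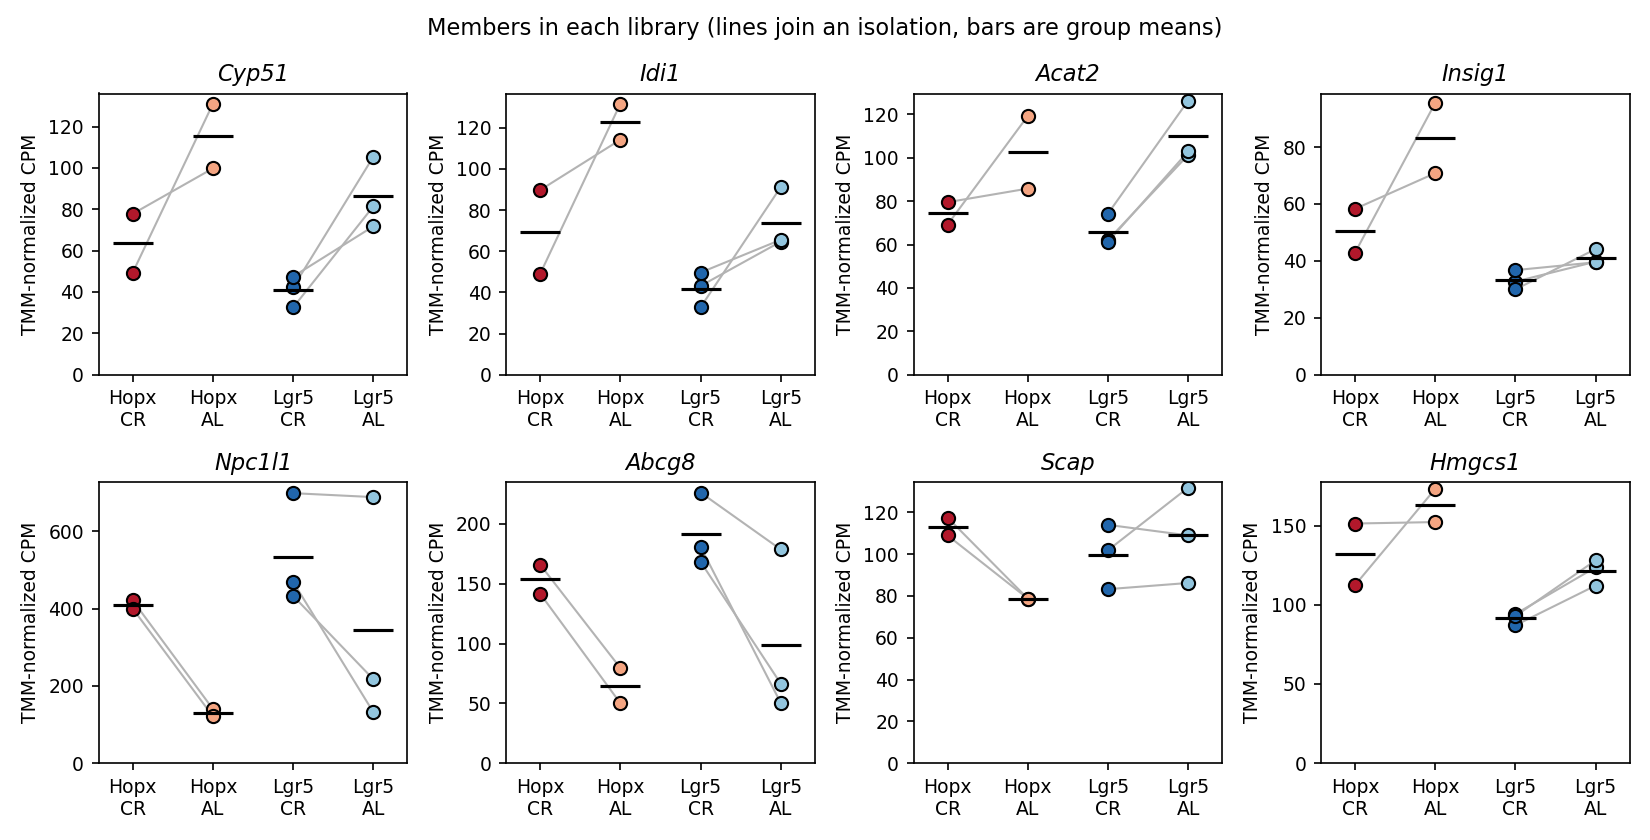
TMM-scaled CPM of 8 members in each library by group, with grey lines joining the CR and AL libraries of an isolation and black bars at group means. Cyp51, Idi1, Insig1 and Hmgcs1 have CR points below AL points in both populations; Npc1l1 and Abcg8 have CR points above AL points in Hopx cells, and in Lgr5 cells except for AL replicate 1.

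All 5 transport genes had higher fitted values in Hopx CR cells (median 1.01) and 4 of 5 in Lgr5 CR cells (median 0.66). None passed the adjusted test; at an unadjusted p under 0.05, 2 were higher in Hopx CR cells and 1 in Lgr5 CR cells, as were 5.41% and 5.57% of all genes. In Hopx cells that count was 0 without Hopx CR replicate 1, AL replicate 2 or CR replicate 2, 1 without Hopx AL replicate 1, and 4 without Lgr5 AL replicate 1. In Lgr5 cells it was 4 without Lgr5 AL replicate 1, 1 without Hopx AL replicate 2 and 0 without any of the other 8 libraries, and it was 4 with the isolation as a block. Npc1l1, the intake protein, had 421 and 400.1 CPM in Hopx CR libraries, against 140.0 and 121 CPM in Hopx AL libraries. In Lgr5 cells Npc1l1 had 699, 433 and 469 CPM in CR libraries, against 689, 217 and 132 CPM in AL libraries. The Hopx groups were far apart, where 21.5% of all genes were apart upward, and the Lgr5 groups overlapped through AL replicate 1. The log2 fold change was 1.65 ± 0.62 in Hopx cells, a 3.15-fold higher level (adjusted p = 0.531, edgeR), and 0.63 ± 0.50 in Lgr5 cells (adjusted p = 0.722, edgeR).

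Abcg5, one partner of the export pump, had 163 and 149 CPM in Hopx CR libraries, against 105 and 92.5 CPM in Hopx AL libraries. In Lgr5 cells Abcg5 had 242, 157 and 168 CPM in CR libraries, against 189, 66.0 and 66.3 CPM in AL libraries. Abcg8, its partner, had 166 and 142 CPM in Hopx CR libraries, against 79.6 and 50.1 CPM in Hopx AL libraries. It had 226, 168 and 181 CPM in Lgr5 CR libraries, against 179, 66.4 and 50.3 CPM in Lgr5 AL libraries. Both partners were apart in Hopx cells, where 21.5% of all genes were apart upward, and overlapped in Lgr5 cells through AL replicate 1. Abcg5 had log2 fold changes of 0.66 ± 0.46 in Hopx cells and 0.82 ± 0.38 in Lgr5 cells (SE; adjusted p = 0.715 and 0.520, edgeR). Abcg8 had 1.25 ± 0.51 and 0.96 ± 0.41 (SE; adjusted p = 0.558 and 0.491, edgeR).

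Soat2, the acyltransferase that makes cholesteryl esters, had 173 and 175 CPM in Hopx CR libraries, against 112 and 61.3 CPM in Hopx AL libraries. It had 246, 175 and 176 CPM in Lgr5 CR libraries, against 256, 84.8 and 36.9 CPM in Lgr5 AL libraries. The Hopx groups were apart, where 21.5% of all genes were apart upward. In Lgr5 cells AL replicate 1 was the highest of all 10 libraries and made the groups overlap. Stard4, a soluble carrier of sterol between membranes, had 68.4 and 65.1 CPM in Hopx CR libraries, against 66.7 and 66.1 CPM in Hopx AL libraries. It had 66.3, 32.1 and 52.8 CPM in Lgr5 CR libraries, against 61.0, 51.2 and 51.8 CPM in Lgr5 AL libraries, and it did not share the pattern of the other transport genes (averaged log2 fold change -0.05 ± 0.18). Stard4 is a known target of SREBP2.

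Npc1l1, Abcg5 and Abcg8 were higher in CR in 5 of 5 isolations, as were 8.71% of all genes, and Soat2 in 4 of 5. In isolation 1 the differences were 0.02 for Npc1l1, 0.36 for Abcg5, 0.34 for Abcg8 and -0.06 for Soat2 on the log2 scale, the smallest of the 5 isolations for each of them. Averaged over populations, Npc1l1, Abcg5 and Abcg8 of the 5 transport genes were higher at an unadjusted p under 0.05, as were 8.35% of all genes, and none passed the adjusted test by edgeR. That count was 1 without Hopx AL replicate 2 and 2 to 4 without any other library. Leaving out Lgr5 AL replicate 1 changed this, and it raised the number of calls over all genes too. In Lgr5 cells 109 of 15696 genes were then called for diet, 107 of them higher, where 3 had been called with all libraries. For the averaged effect 348 were called, 321 of them higher, where 1 had been. Npc1l1 then rose by 1.61 (adjusted p = 0.0434, edgeR), Abcg5 by 1.52 (0.0281) and Abcg8 by 1.72 (0.0281) in Lgr5 CR against the 2 remaining AL libraries, on the log2 scale. Averaged over populations without that library, Npc1l1, Abcg5, Abcg8 and Soat2 rose by 1.63, 1.09, 1.48 and 1.36 on the log2 scale, and Cyp51 fell by 0.89 (adjusted p = 0.0142, 0.0212, 0.0141, 0.0392 and 0.0406, edgeR). The enterocyte markers were lower in the 2 remaining AL libraries than in any other Lgr5 library.

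Between populations, Insig1 was the only member that passed the test, in a comparison in which 1.33% of genes were called. Its level averaged 1.76-fold higher in Hopx than in Lgr5 cells (log2 fold change 0.81 ± 0.14, adjusted p = 0.0327, edgeR). The highest Lgr5 value, 44.2 CPM in AL replicate 2, still exceeded the lowest Hopx value, 42.9 CPM in CR replicate 1. No member had groups that did not overlap, where 2.87% of all genes were apart upward and 1.93% downward. The call was lost in 8 of 10 fits with 1 library left out (adjusted p = 0.0383 to 0.164 over all 10), and on the log2(TPM + 1) scale, where the value was 0.24 (adjusted p = 0.338, limma). Reporter line and isolation cannot be told apart from population, since each isolation held 1 line.

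Of the 20 enzymes, 19 had higher fitted values in Hopx than in Lgr5 cells on the count scale (median 0.30), but only 3 with log2(TPM + 1) values (median -0.24), by which the median gene was itself at -0.35. On the count scale 50.5% of all genes were above 0 and 49.5% below. Relative to the median of all genes, the enzymes' median was 0.29 on the count scale and 0.11 on the TPM scale. The smallest p on the count scale belonged to 3 enzymes, at 0.75 ± 0.19 for Msmo1, 0.73 ± 0.20 for Idi1 and 0.48 ± 0.12 for Hmgcs1 (SE; adjusted p = 0.0887, 0.0942 and 0.0844, edgeR), with Hmgcs1 at -0.08 on the TPM scale. At an unadjusted p under 0.05, 5 enzymes were higher on the count scale, as were 10.4% of all genes, and no member was lower, as were 9.03%. Npc1l1 was at -0.89 ± 0.40 on the count scale and -1.22 on the TPM scale, and Abcg8 at -0.46 ± 0.33 and -0.89. On the TPM scale Acat2, Srebf2, Scap, Npc1l1 and Abcg8 passed the test as lower in Hopx cells (limma). There 3192 of 15839 genes were called lower and 158 higher, with the median gene at -0.35. Whether these members were lower beyond that shift of all genes was not tested.

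**Figure D5:**
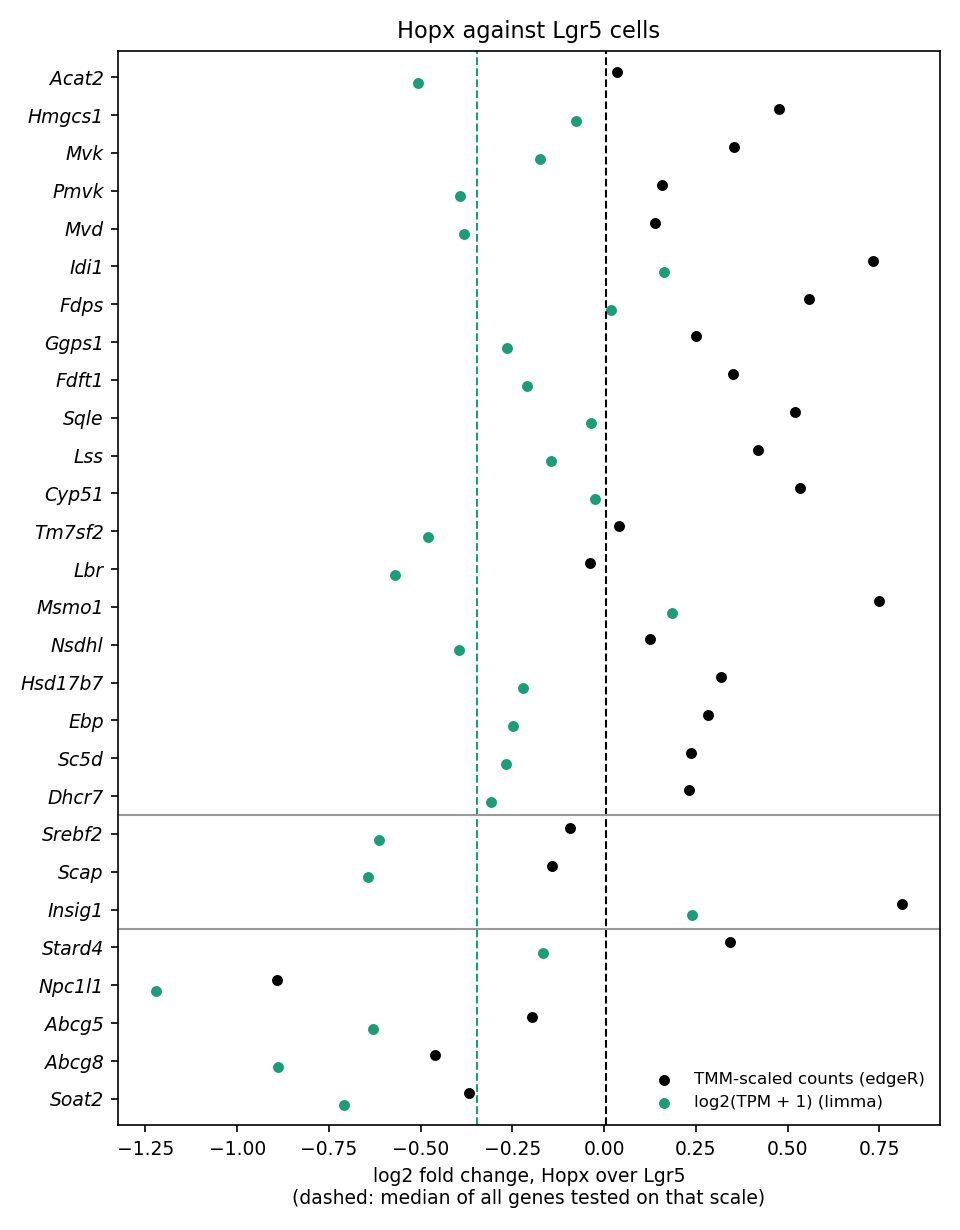
Log2 fold change of Hopx over Lgr5 cells, averaged over diets, for each member on the count scale (black, edgeR) and on the log2(TPM + 1) scale (green, limma); dashed lines mark the median of all genes tested on each scale. All enzymes but Lbr lie right of 0 on the count scale, with a median of 0.30, and mostly left of 0 on the TPM scale, with a median of -0.24, while the median of all genes lies at -0.35 there.

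Compared per length, the order of the members' levels differed between groups. Npc1l1 averaged 83.5 ± 1.16 TPM in Hopx CR and 21.8 ± 2.26 TPM in Hopx AL libraries (SD, n = 2 each), and 134 ± 36.9 TPM in Lgr5 CR and 92.5 ± 68.9 TPM in Lgr5 AL libraries (SD, n = 3 each). Fdps averaged 55.8 ± 17.4 TPM in Hopx CR and 73.7 ± 12.4 TPM in Hopx AL libraries, and 46.8 ± 14.9 TPM in Lgr5 CR and 86.0 ± 11.2 TPM in Lgr5 AL libraries. Thus Npc1l1 stood above Fdps in both CR groups and below it in Hopx AL libraries, and in Lgr5 AL libraries they did not differ beyond their spread. Pooled over groups, Npc1l1 averaged 89.0 TPM in the 10 libraries (20.2 to 175), Soat2 74.8 TPM (25.4 to 138) and Abcg5 71.3 TPM (33.0 to 132). Abcg8 averaged 58.8 TPM (18.4 to 108). These ranges overlap, but they pool libraries of all groups and do not compare genes within a library. Within each library Abcg5 stood above Abcg8. Every other pair of these 4 genes changed order between libraries. Of the enzymes Lbr (81.1 TPM) and Fdps (65.7 TPM) were highest and Hsd17b7 (6.64 TPM) lowest, with ranges of 43.6 to 139, 37.7 to 98.9 and 4.78 to 8.75 TPM. Summed over the 28 members, the libraries held 779.8 to 1341 TPM.

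Further genes of sterol handling were examined as whole lists. Of 10 other sterol-sensing genes, 7 had higher fitted values in Hopx CR cells and 7 in Lgr5 CR cells, with medians of 0.25 and 0.13, and none passed the test. Erlin1, a membrane protein of the endoplasmic reticulum, was at 0.58 ± 0.22 in Lgr5 cells (SE; adjusted p = 0.440, edgeR). Of 18 other genes of uptake, storage and export, 14 had higher values in Hopx CR cells and 15 in Lgr5 CR cells, with medians of 0.36 and 0.28. Abca1, which loads cholesterol onto apolipoprotein A1 and is a known target of the oxysterol receptors, had 28.5 and 34.3 CPM in Hopx CR libraries, against 8.40 and 3.31 CPM in Hopx AL libraries. In Lgr5 cells Abca1 had 55.1, 27.8 and 40.5 CPM in CR libraries, against 7.49, 1.11 and 4.06 CPM in AL libraries. All 5 CR libraries lay above all 5 AL libraries, as they did for 1.61% of all genes. The enterocyte markers were higher in CR as well, and their part in this was not tested. The averaged log2 fold change of Abca1 was 2.86 ± 0.48 (adjusted p = 0.0739, edgeR). Apob, the protein core of chylomicrons and one of the 12 enterocyte markers, was at 1.99 ± 0.33 (SE; adjusted p = 0.0698, edgeR). Apoa1 and Mttp stand in both lists as well.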

How the data were processed

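Cells were lysed in TRIzol LS, cDNA was made with SMART-Seq v4, and Nextera XT libraries were read on a NextSeq 500, per the labels' protocols; neither kit marks strand or molecules, so amplified copies count as reads. The authors deposited estimated counts per gene symbol and TPM for the same 30295 rows. Per the submitters' processing notes, kallisto and edgeR were used and the build is GRCh38, a human build, though the symbols are mouse (28423 of 30293 were found in GENCODE M21); the mouse transcriptome used is not named there. Estimated counts were rounded and fitted with edgeR 4.0.16 in R 4.3.3 (filterByExpr with a minimum count of 10, TMM, 4 group means over all 10 libraries, quasi-likelihood test, Benjamini-Hochberg adjustment over 15839 genes, threshold 0.05). The diet effect averaged over populations weights Hopx and Lgr5 cells equally. CPM is on the TMM scale, and differences within an isolation used log2(CPM + 0.5). Alternatives were DESeq2 1.42.0 and its size factors, no filter, the isolation as a block, limma 3.58.1 on log2(TPM + 1) and log2(TPM + 0.1), each population alone, and each library left out. The labels number the isolations, so the number pairs the CR and AL libraries; deviations from group means correlated at 0.0825, 0.208 and 0.0712 in isolations 1 to 3 and at 0.0447 in 4 and 5. The members, the gene lists and the rules for naming genes were chosen with earlier results of these data known. Values in each library are given for the transport genes, Insig1, Srebf2 and the 4 members with the smallest unadjusted p in each comparison; of other lists, at most 2 genes with the smallest p are named. Of the symbols, 27 look like dates and were kept as deposited. The fits were tested on simulated data.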

Additional observations from a re-analysis of the deposited data

How the results depend on the processing

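Numbers of genes called depended on the tool and on single libraries. In Hopx cells 2 genes were called for diet, against 7 with no filter, 0 with the isolation block, 144 by DESeq2, 4 on each TPM scale, and 1 to 3 with a library left out. In Lgr5 cells the count was 3, against 1 with DESeq2's size factors, 83 with no filter, 0 with the block, 360 by DESeq2, 19 and 23 with pseudocounts of 1 and 0.1 on TPM, and 0 to 109. For the averaged diet effect it was 1, against 117, 2 (block), 644, 50, 62, and 1 to 348; for the difference between diet effects it was 1, against 3, 0 (block), 40, 3, 2, and 1 to 2. For Hopx against Lgr5 it was 211, against 465, 1377, 3350, 3658, and 22 to 293; this comparison could not be fitted with the block. Members called numbered 2 in Lgr5 cells by DESeq2 (Acat2 and Cyp51) and 0 to 3 with a library left out; 1 without the filter, 5 by DESeq2 and 0 to 5 for the averaged effect; and 3, 4, 5, 5 and 0 to 1 between populations. The enzymes' Lgr5 median moved to -0.62 and -0.64 on the TPM scales and ran from -0.58 to -0.35 with a library left out; the transport median there ran from 0.22 (without AL replicate 3) to 1.61 (without AL replicate 1). For the difference between diet effects the enzymes' median was 0.51 and 0.53 on the TPM scales, where the median gene was at 0.29 and 0.40. The transport median ran from -0.47 to 0.70 with a library left out. Between populations the enzymes' median was -0.24 and -0.25 on the TPM scales, which also turned Hmgcs1 (-0.078 and -0.079), Cyp51 (-0.026 and -0.023), Sqle (-0.037 and -0.037) and Stard4 (-0.17 and -0.17), and turned Insig1 to 0.082 and 0.088 in the difference between diet effects. With a library left out, small values changed sign: Stard4 (-0.40 to 0.12), Srebf2 (-0.28 to 0.071) and Scap (-0.27 to 0.032) in Lgr5 cells, Stard4 (-0.026 to 0.049) in Hopx cells, and Abcg5 (-0.35 to 0.15), Soat2 (-0.63 to 0.16) and Srebf2 (-0.21 to 0.0056) between populations. The cause was not tested. The block changed no member's call. Groups of 2 and 3 libraries with a biological coefficient of variation of 0.389 limit what could be called.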

Other observations

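Genes outside the cholesterol chain that draw on the same intermediates showed no common direction. Of 9 genes of the dolichol, ubiquinone and prenylation branches, 5 had higher and 4 lower fitted values in CR in both Hopx and Lgr5 cells, with medians of 0.08 and 0.13. None had an unadjusted p under 0.05 by edgeR in either population. Of 4 further known targets of SREBP2 that were tested, 1 was lower in Hopx CR cells and 2 in Lgr5 CR cells. Aacs, the acetoacetyl-CoA synthetase, was at -0.40 ± 0.31 in Hopx cells and -0.61 ± 0.26 in Lgr5 cells on the log2 scale (SE; adjusted p = 0.744 and 0.489, edgeR). Idi2 did not pass the filter on low counts and was at 0.0186 to 0.126 TPM in all 10 libraries.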
